A study of Drosophila melanogaster with 6 samples.

Results

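The genes that give a neuron its transmitter identity were followed through 4 RNA-seq libraries of adult Drosophila melanogaster brain. The members were chosen by name, as 3 genes of acetylcholine signalling (ChAT, VAChT and Ace), 2 genes of GABA neurons (Gad1 and VGAT) and 1 gene of glutamate neurons (VGlut). All 6 were found among the 16725 genes of the count table, ChAT under its older symbol Cha. RNA was extracted from brains of 5-day-old Canton-S flies, pooled at 15 brains per sample, and the total RNA was split for rRNA depletion, in which DNA probes against rRNA and RNase H remove the rRNA, and for polyA enrichment, which captures RNAs by their polyA tails. There were 2 rRNA-depleted and 2 polyA-enriched libraries by their labels, numbered 1 and 2 in each label. The comparison of the labels sets one preparation against the other. The paper gives a larger input of total RNA for rRNA depletion than for polyA enrichment, so method and input cannot be told apart. The labels also differed in genes of fat body, photoreceptors and muscle, as given below, which cannot be told apart from the preparation either.

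Acetylcholine is the main excitatory transmitter of the fly central nervous system and GABA the main inhibitory one. Glutamate excites muscle at the fly neuromuscular junction, and in the brain it can also inhibit through a glutamate-gated chloride channel. A neuron is assigned to one of these systems by the enzyme that makes its transmitter and by the transporter that loads it into synaptic vesicles. Glutamate is made in every cell as a metabolite, so its vesicular transporter serves as the identity marker. In RNA from whole brains, fewer cells of a type and less RNA per cell cannot be told apart.

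ChAT encodes choline acetyltransferase, which makes acetylcholine, and VAChT encodes the transporter that loads acetylcholine into vesicles. Both genes form the cholinergic locus on chromosome 3R of dm6, on the plus strand, where ChAT extends from 18705501 to 18732344 and VAChT from 18705501 to 18718916. In the Ensembl annotation both start at the same base and share a first exon of 606 bp, and the remaining exon of VAChT, of 6492 bp, lies inside the first intron of ChAT. The shared exon was 15.1% of the exon length of ChAT (4011 bp) and 8.5% of that of VAChT (7098 bp). Reads in the shared exon cannot be assigned to one of the genes, and how the authors' counting treated them is not given in the sources used here.

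**Figure D1:**
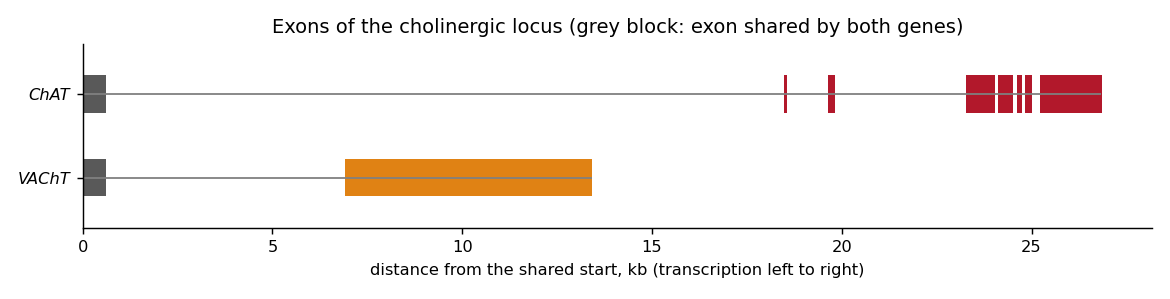
Exons of ChAT (upper row) and VAChT (lower row) to scale, as distance in kb from their common start, with introns as lines. The grey block is the 606 bp exon held by both genes, and the long exon of VAChT lies within the first intron of ChAT.

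Ace encodes acetylcholinesterase, the enzyme that breaks acetylcholine down in the synaptic cleft, and lies on 3R from 13222951 to 13259517 on the minus strand, with 8473 bp of exon. Gad1, which encodes the glutamate decarboxylase that makes GABA, lies on 3L from 4074077 to 4088744 on the minus strand and has 3684 bp of exon. VGAT encodes the vesicular GABA transporter and lies on 2R from 14198478 to 14201249 on the minus strand, with 2700 bp. VGlut encodes the vesicular glutamate transporter and lies on 2L from 2400295 to 2410662 on the plus strand, with 5716 bp, of which 39 bp overlap an exon of CG18641 on the opposite strand. No other exon overlap with an annotated gene was found for the 6 members.

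The total count per library was between 11838449 and 14295047, and 3 counts of a total, the smallest share that was read as detected, came to between 0.210 and 0.253 CPM, which scales counts by the library total. The first principal component of log2 CPM held 51.2% of the variance and separated the libraries numbered 1 from those numbered 2, while the second, with 46.3%, separated the labels. The members are described along the label and along the number. Of 10 neuron markers, 9 could be used, as the row of para held no readable counts and its level is not known. The summed level of the 9 was 11820 and 13200 CPM in rRNA-depleted libraries 1 and 2, against 10150 and 11560 CPM in polyA-enriched 1 and 2. Markers of tissue around the brain were also present. The summed level of 7 fat body genes was 1170 and 2356 CPM in the rRNA-depleted libraries, against 15080 and 13740 CPM in the polyA-enriched libraries. For 14 photoreceptor genes it was 1110 and 1274 CPM, against 4685 and 3655 CPM, and for 10 muscle genes 48.06 and 67.37 CPM, against 250.3 and 340.3 CPM, in the same order. Single genes weighed heavily in these sums. The photoreceptor gene norpA had 567.7 and 908.5 CPM, against 632.8 and 861.3 CPM. Of the muscle genes, bt had 23.64 and 40.44 CPM, against 24.89 and 69.01 CPM, and Act79B 19.03 and 7.494 CPM, against 18.67 and 13.6 CPM. The sums thus understate how far the other genes of these 2 lists differed together. None of the genes of the lists was at 0 in all 4 libraries, though the muscle genes Act88F and TpnC4 had at most 5 counts in any library.

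Together the 6 members held 0.503% and 0.597% of the counts in rRNA-depleted 1 and 2, against 0.382% and 0.460% in polyA-enriched 1 and 2. The means were 0.550% ± 0.066 for the rRNA-depleted libraries and 0.421% ± 0.055 for the polyA-enriched libraries (SD, n = 2 each). The difference of 0.129 percentage points had p = 0.33 in an exact two-sided permutation test, the smallest p that 2 libraries against 2 allow, and ran between 0.083 and 0.176 points with 1 library left out. The labels did not overlap in this share. The 95% Wilson intervals of the shares, which cover counting error only, were 0.4998 to 0.5071% and 0.593 to 0.601% against 0.378 to 0.385% and 0.456 to 0.464%.

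ChAT had 5232 and 3835 counts in rRNA-depleted 1 and 2, against 3529 and 2594 in polyA-enriched 1 and 2. As CPM these were 366.0 and 315.8, against 255.3 and 219.1. Both rRNA-depleted libraries were above both polyA-enriched libraries, as was so for 8.87% of all genes tested. Counting either direction, 31.2% of all genes tested had labels that did not overlap. Within each label the library numbered 1 was the higher for ChAT. VAChT had 980.5 and 1288 CPM in the rRNA-depleted libraries, against 706.6 and 913.8 CPM in the polyA-enriched libraries. The labels did not overlap here either, but within each label the library numbered 2 was the higher, the opposite of ChAT. Ace had 903.6 and 1100 CPM in the rRNA-depleted libraries, against 816.0 and 1034 CPM in the polyA-enriched libraries. Its labels overlapped, and both libraries numbered 2 were above both numbered 1, while 62.9% of all genes tested had numbers that did not overlap in one direction or the other.

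Gad1 had 22088 and 12772 counts, or 1545 and 1052 CPM, in rRNA-depleted 1 and 2, against 15310 and 8614 counts, or 1108 and 727.6 CPM, in polyA-enriched 1 and 2. The labels overlapped, since polyA-enriched 1 was above rRNA-depleted 2, and the lowest library numbered 1 was above the highest numbered 2. VGAT, the other GABA gene, had 239.6 and 318.5 CPM in the rRNA-depleted libraries, against 185.4 and 228.2 CPM in the polyA-enriched libraries. It did not follow Gad1 along the number, as the library numbered 2 was the higher in each label. The labels of VGAT did not overlap, with 239.6 CPM as the lower value of the rRNA-depleted libraries and 228.2 CPM as the higher value of the polyA-enriched libraries. Of all genes tested, 8.87% had both rRNA-depleted libraries above both polyA-enriched ones, and 31.2% had no overlap in either direction. VGlut had 14285 and 23004 counts, or 999.3 and 1894 CPM, in rRNA-depleted 1 and 2, against 10306 and 17459 counts, or 745.6 and 1475 CPM, in polyA-enriched 1 and 2. Its labels overlapped, and the libraries numbered 2 lay well above those numbered 1, so that the highest library had 2.54 times the CPM of the lowest, the widest span of the 6 members.

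**Figure D2:**
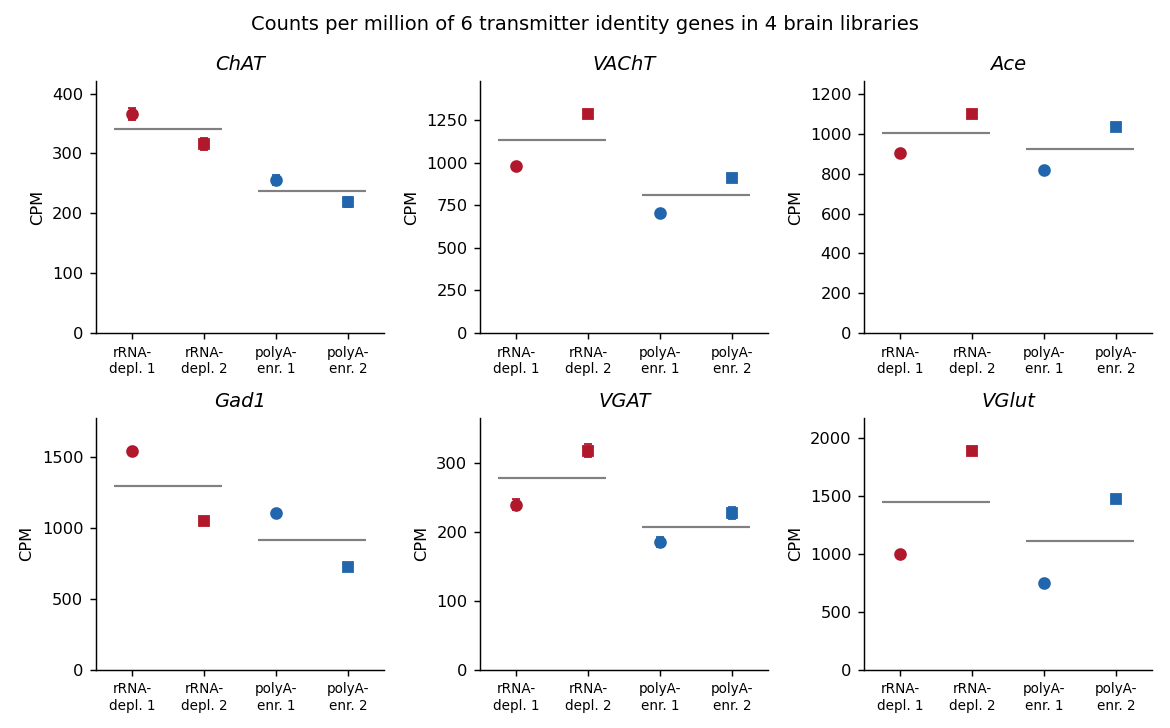
CPM (vertical axes, from 0) of each member in the 4 brain libraries, with red for rRNA-depleted, blue for polyA-enriched, circles for number 1 and squares for number 2. Grey lines are the means of a label, and bars, mostly smaller than the points, are 95% Wilson intervals. ChAT, VAChT and VGAT show no overlap of the labels, whereas Ace, Gad1 and VGlut show no overlap of the numbers. Counting either direction, 31.2% of all genes tested had no overlap of the labels and 62.9% none of the numbers.

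Counts grow with the length of a transcript, so members were compared with each other as CPM per kilobase of exon. On this scale Gad1 had the highest mean over the 4 libraries (300.8 ± 91.2), followed by VGlut (223.7 ± 89.2), VAChT (137.0 ± 33.9), Ace (113.7 ± 15.1), VGAT (89.97 ± 20.55) and ChAT (72.07 ± 16.20; SD, n = 4 libraries of both labels). Every neighbouring pair in this order overlapped in its range over the libraries. Gad1 led in both libraries numbered 1, with 419.4 CPM per kilobase in rRNA-depleted 1 and 300.7 in polyA-enriched 1, against 174.8 and 130.4 for VGlut. In the libraries numbered 2 VGlut led, with 331.4 in rRNA-depleted 2 and 258.0 in polyA-enriched 2, against 285.5 and 197.5 for Gad1. After these came VAChT and then Ace in all 4 libraries, by 138.1 against 106.6 in rRNA-depleted 1 and by 99.55 against 96.31 in polyA-enriched 1. ChAT was last in 3 libraries and VGAT in rRNA-depleted 1, at 91.25 against 88.74. The same counts were also divided by the exon length that no other gene holds, a choice made after seeing the data. ChAT was then above VGAT in polyA-enriched 1 as well (74.98 against 68.68) and above Ace in rRNA-depleted 1 (107.5 against 106.6). On that scale ChAT was last only in the libraries numbered 2. The counts were not limited to those bases, so the values of ChAT are too high if reads of the shared exon were counted. The order depends on the gene models, since long untranslated exons count toward length whether or not these neurons use them.

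**Figure D3:**
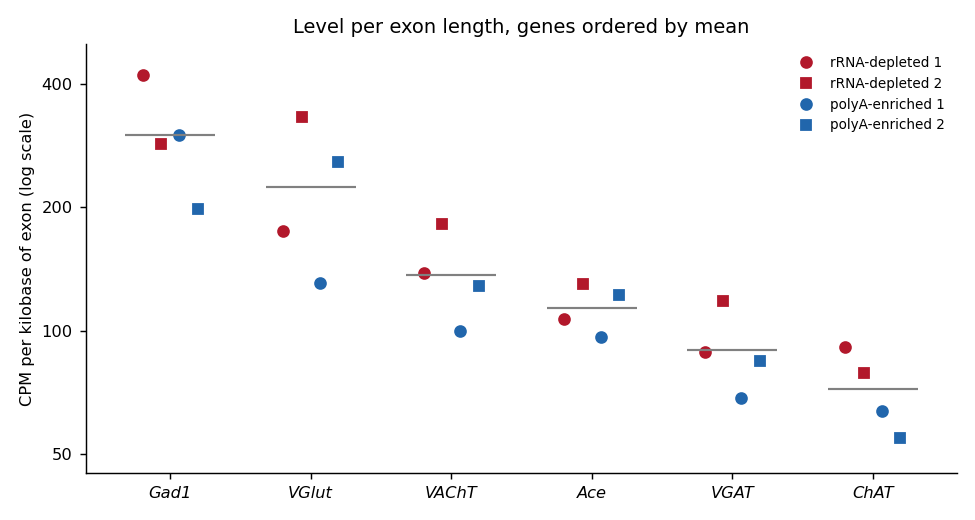
CPM per kilobase of exon on a log axis for the 6 members, ordered by the mean over 4 libraries (grey lines). Gad1 is highest in the libraries numbered 1 (circles) and VGlut in those numbered 2 (squares).

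Set against the polyA-enriched libraries, all 6 members had a positive log2 fold change in the rRNA-depleted libraries by edgeR's quasi-likelihood test on TMM-normalized counts, with a median of 0.52 against 0.04 for the 9737 genes tested. A call needed an adjusted p (Benjamini-Hochberg) under 0.05 and a log2 fold change beyond 1. None of the 6 was called, and neither was any of the genes tested (0.00%). At an unadjusted p under 0.05 there were 0 members and 1103 genes (11.3%), and DESeq2 called 0 members and 548 genes (5.63%). ChAT had the largest fold change, 1.49-fold (log2 0.58, standard error, SE, 0.24, adjusted p = 0.548 by edgeR). It was followed by Gad1 at 1.46-fold (log2 0.55, SE 0.33), VAChT at 1.46-fold (log2 0.55, SE 0.32), VGAT at 1.41-fold (log2 0.49, SE 0.31) and VGlut at 1.36-fold (log2 0.45, SE 0.54). Ace was lowest at 1.13-fold (log2 0.17, SE 0.29). The SEs hold the spread between the numbers within a label.

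Within the numbered pairs, each member had nearly the same ratio of the labels in both pairs. The log2 ratio of rRNA-depleted over polyA-enriched CPM was 0.52 in pair 1 and 0.53 in pair 2 for ChAT, 0.47 and 0.50 for VAChT, and 0.48 and 0.53 for Gad1. It was 0.37 and 0.48 for VGAT, 0.42 and 0.36 for VGlut, and 0.15 and 0.09 for Ace. The median over the 9530 tested genes with counts in every library was -0.03 in pair 1 and -0.02 in pair 2, and 5 members lay above 89.1% to 96.8% of these genes, with Ace above 73.6% in pair 1 and 62.8% in pair 2. With the replicate number as a block, edgeR's quasi-likelihood test gave 5 of 6 members an adjusted p under 0.05, all higher in the rRNA-depleted libraries, where 11.1% of the genes tested passed in that direction, 19.2% in the other and 30.3% in either. The log2 fold changes with the block were 0.58 for ChAT (SE 0.09, adjusted p = 6.17e-07 by edgeR), 0.56 for Gad1 (adjusted p = 3.53e-06), 0.54 for VAChT (adjusted p = 7.05e-06), 0.48 for VGAT (adjusted p = 2.75e-05) and 0.45 for VGlut (adjusted p = 0.000191). Ace stood at 0.17 (SE 0.10, adjusted p = 0.19 by edgeR). None reached a log2 fold change of 1, so 0 of 6 were called with the block, where 0.349% of genes were called higher and 12.1% lower. A fit of 4 libraries with a label and a block leaves 1 degree of freedom per gene, and its errors draw mainly on the spread shared by all genes. In the fit without the block, leaving out 1 library, which also unbalances the numbers, turned the direction for Ace (log2 -0.04 without rRNA-depleted 2 and -0.02 without polyA-enriched 1) and for VGlut (-0.16 and -0.01 without the same libraries), and moved the log2 fold change of VAChT, Gad1 and VGAT by over 1.5 times, to between 0.27 and 0.82, 0.31 and 0.86, and 0.21 and 0.73. Within both numbered pairs the ratios of Ace and VGlut were positive, as given above.

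**Figure D4:**
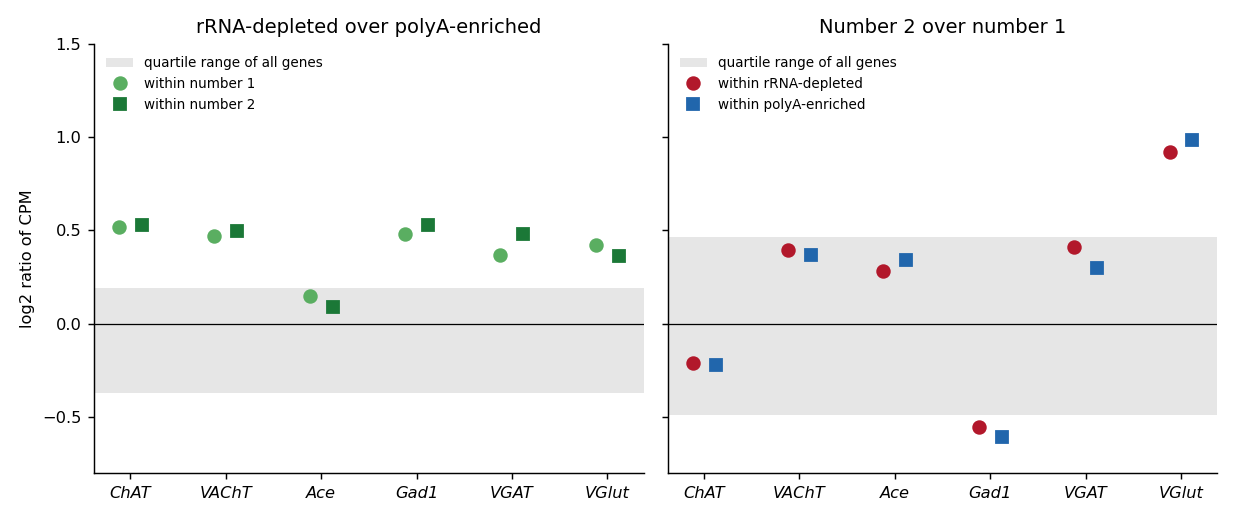
Log2 ratios of CPM for each member, left as rRNA-depleted over polyA-enriched within number 1 (circles) and number 2 (squares), right as number 2 over number 1 within rRNA-depleted (red) and polyA-enriched (blue). The shaded band runs from the lowest lower quartile to the highest upper quartile of 9530 genes in the ratios of a panel. On the left 5 members lie above it and Ace inside it, on the right VGlut lies above and Gad1 below it.

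The neuron markers moved the same way at a smaller size, with 9 of 9 positive. With the block in edgeR's fit, 5 of 9 were higher at an adjusted p under 0.05, against 11.1% of all genes tested. Their median log2 fold change with the block was 0.26. The 6 members summed to 0.426 and 0.452 of the summed CPM of the 9 neuron markers in rRNA-depleted 1 and 2, against 0.376 and 0.398 in polyA-enriched 1 and 2. The log2 ratio of the labels on this scale was 0.18 in pair 1 and 0.19 in pair 2. For ChAT it was 0.30 and 0.34, and for Gad1 0.26 and 0.34, while for Ace it was negative, at -0.07 and -0.10. Fat body and photoreceptor genes were lower in the rRNA-depleted libraries, with 7 of 7 and 13 of 14 called with the block. Of the 8 muscle genes tested, 6 were called lower as well, where 12.1% of all genes tested were called lower. Without the block 0 genes of these lists were called, as was so for all genes tested (0.00%). The part of these tissues in the difference of the members was not tested. Glial markers went both ways. With the block 3 of 8 were higher at an adjusted p under 0.05 (Gat at log2 0.76, alrm at 0.57 and Eaat1 at 0.32). Another 2 were lower (wrapper at -0.84 and moody at -0.45), where 11.1% of all genes tested were higher and 19.2% lower. With the block 0 of 8 were called, and 3 of the 8 (Eaat1, Gs2 and Gat) are also in the transmitter lists.

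Along the number, the members went separate ways. Whether same-numbered libraries share an RNA sample is not stated. If so, p-values along the number hold the spread between preparations, not between brain samples. VGlut had the largest difference, with 1894 and 1475 CPM in rRNA-depleted 2 and polyA-enriched 2, against 999.3 and 745.6 CPM in rRNA-depleted 1 and polyA-enriched 1. This was 2.05-fold in edgeR's quasi-likelihood test (log2 1.03, SE 0.28, adjusted p = 0.0861), which did not pass, and DESeq2 gave log2 0.97 (adjusted p = 0.00579), under the fold threshold, where 21.4% of genes had an adjusted p under 0.05. With the label as a block in edgeR, VGlut was called higher in the libraries numbered 2 (log2 1.03, SE 0.10, adjusted p = 4.68e-14), with 10.5% of genes called in that direction. VAChT differed by 0.47 on the log2 scale (SE 0.31, adjusted p = 0.377 by edgeR), VGAT by 0.45 (SE 0.27, adjusted p = 0.328) and Ace by 0.39 (SE 0.17, adjusted p = 0.204). ChAT had -0.13 (SE 0.31, adjusted p = 0.835) and Gad1 -0.49 (SE 0.32, adjusted p = 0.375) in the same edgeR fit. Without the block 0 of 6 members were called, against 8.33% of all genes tested, and 1 member, VGlut, had an unadjusted p under 0.05, against 34.6% of all genes. With the block 5 of 6 had an adjusted p under 0.05, against 56.2% of all genes, and whether these shares differ was not tested. The CPM ranges of the numbers stayed apart for Ace, Gad1 and VGlut, 3 of 6, against 62.9% of all genes. Leaving out rRNA-depleted 1 or polyA-enriched 2 turned the direction of ChAT, to 0.16 and 0.07 on the log2 scale. As each of the 4 libraries was left out in turn, VGlut ran between 0.73 and 1.27, VAChT between 0.14 and 0.73, VGAT between 0.13 and 0.65, Ace between 0.22 and 0.48 and Gad1 between -0.84 and -0.22.

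The libraries numbered 2 differed from those numbered 1 in step with the exon length of a gene. The median log2 fold change of number 2 over number 1 was -0.44 in the 1588 tested genes with under 1000 bp of exon, 0.03 in the 1946 genes of 2000 to 3000 bp, 0.40 in the 1112 genes of 4000 to 6000 bp and 0.73 in the 474 genes of 8000 bp or more. This is a description across genes, which are not independent replicates. Between the labels, with the number as a block, the corresponding medians were -0.01, 0.01, 0.12 and 0.18. VAChT at 0.47 and Ace at 0.39 lay below the medians of their own length classes along the number, which were 0.63 and 0.73. ChAT at -0.13 lay above 10.8% of the genes of its class, and Gad1 at -0.49 above 4.68%. VGAT, the shortest member, lay above 81.5% of its class, and VGlut above 92.1%. Along the label, ChAT, VAChT and Gad1 lay above 98.3% to 98.7% of the genes of their classes, VGAT above 96.4%, VGlut above 95.1% and Ace above 47.3%. The part of length in the differences of the members was not tested.

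**Figure D5:**
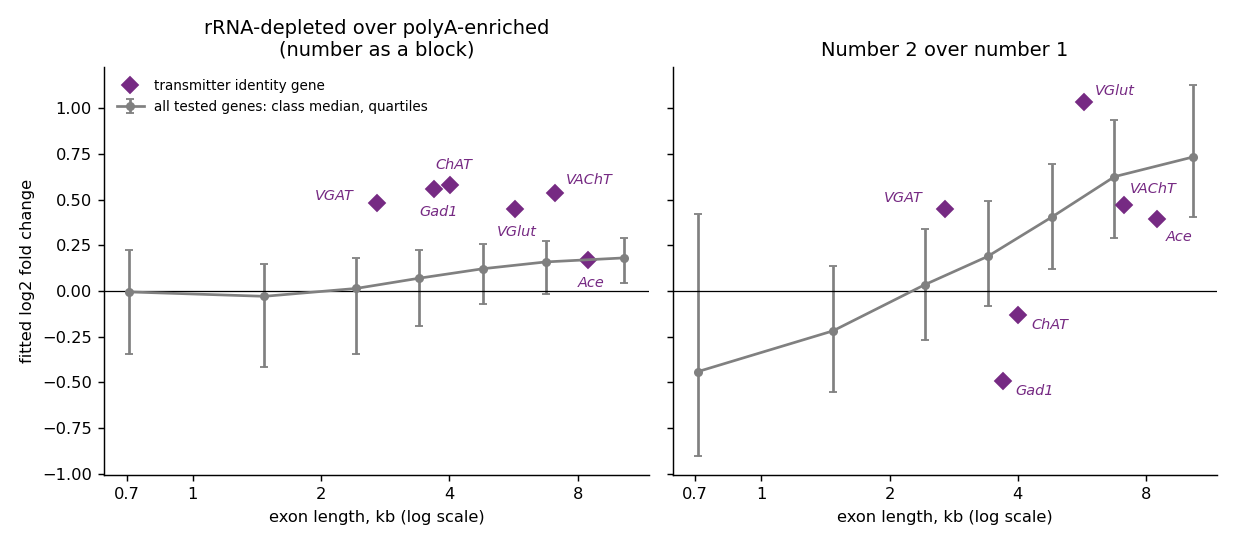
Fitted log2 fold change against exon length in kb on a log axis, left for rRNA-depleted over polyA-enriched with the number as a block, right for number 2 over number 1. Grey points and bars are the median and quartiles of all tested genes in 7 length classes and purple diamonds are the members; class medians run between -0.44 and 0.73 on the right and between -0.03 and 0.18 on the left.

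Ratios of members within a library do not depend on how libraries are scaled to each other. VAChT had 2.68 and 4.08 times the counts of ChAT in rRNA-depleted 1 and 2, against 2.77 and 4.17 times in polyA-enriched 1 and 2. Per kilobase of exon the ratios were 1.51 and 2.31, against 1.56 and 2.36. The ratio of the genes that share a start was thus nearly the same in both labels and higher in number 2, by 0.60 on the log2 scale (exact two-sided permutation test, p = 0.33). VGAT stood to Gad1 as 0.212 and 0.413 per kilobase in the rRNA-depleted libraries, against 0.228 and 0.428 in the polyA-enriched libraries. This GABA ratio was higher in number 2 by 0.94 on the log2 scale and differed between the labels by -0.08. VGlut stood to Gad1 as 0.417 and 1.16 per kilobase, against 0.434 and 1.31, so that the order of the marker genes of glutamate and GABA neurons turned round between the numbers, with a log2 difference of 1.53.

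Gad1 had 4.60 and 3.63 times the level of ChAT per kilobase in rRNA-depleted 1 and 2, against 4.72 and 3.62 times in polyA-enriched 1 and 2. The steadiest ratio was that of VAChT to VGAT, the vesicular transporters of acetylcholine and GABA, which was 1.56 and 1.54 per kilobase in the rRNA-depleted libraries and 1.45 and 1.52 in the polyA-enriched libraries, with an SD of 0.05 on the log2 scale over the 4 libraries. In all, 9 ratios were computed, 3 within a transmitter, 3 between the identity genes ChAT, Gad1 and VGlut and 3 between the vesicular transporters. For 8 of the 9, both libraries numbered 2 lay on the same side of both numbered 1 (exact permutation p = 0.33, the smallest the design allows, adjusted p = 0.375). The ratios share the same 6 genes and are not independent, and 62.9% of single genes tested had CPM ranges of the numbers that did not overlap. For 1 of the 9, VAChT to VGAT, both rRNA-depleted libraries lay above both polyA-enriched ones. Ace to ChAT was 1.17 and 1.65 per kilobase in the rRNA-depleted libraries, against 1.51 and 2.23 in the polyA-enriched libraries, the widest difference between the labels among the 9, at -0.41 on the log2 scale (exact permutation p = 0.67), and between -0.69 and -0.12 with 1 library left out.

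The genes most like each member were taken as those with the smallest distance between log2 CPM centred on the gene's own mean, over 4 libraries and among 7268 other genes with a mean of at least 100 counts. With so few libraries this is a description only. VGlut was closest to SerT, which encodes the serotonin transporter, at a distance of 0.033, followed by Ptp36E at 0.067. Ace was closest to Sulf1 (0.023) and Gga (0.024), Gad1 to sotv (0.036) and EndoB (0.087), and ChAT to HPS4 (0.077) and amon (0.098). VAChT was closest to beat-Ic (0.063) and CG9674 (0.065) and VGAT to Nipped-A (0.044) and dpr13 (0.063). Of the members, VAChT and VGAT were each the sixth closest gene to the other, at 0.079, while ChAT and VAChT lay 0.60 apart and Gad1 and VGlut 1.54.

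Around the members, 14 further genes of acetylcholine signalling were listed, of which 13 passed the count minimum. With the number as a block in edgeR's test, 6 of the 13 had an adjusted p under 0.05 and were higher in the rRNA-depleted libraries and 1 was lower, against 11.1% higher and 19.2% lower of all genes tested, with a median log2 fold change of 0.21 against 0.04 for all genes. The subunits with the highest level per kilobase, nAChRbeta1 and nAChRalpha7, belong to acetylcholine-gated channels and had 0.18 (adjusted p = 0.163) and 0.13 (adjusted p = 0.376) on the log2 scale in edgeR with the block. The subunit gene nAChRbeta3 was the 1 that was called. It had 139 and 52 counts in rRNA-depleted 1 and 2, against 391 and 187 in polyA-enriched 1 and 2, and fell by 1.63 on the log2 scale with the block (SE 0.19, adjusted p = 3.16e-11 by edgeR, and 0.319 without the block), opposite to ChAT. ChT, which was picked after its values were seen, encodes the choline transporter that supplies the substrate of ChAT. It had 509.8 and 623.3 CPM in the rRNA-depleted libraries, against 358.1 and 408.8 CPM in the polyA-enriched libraries, and its log2 difference with the block was 0.61 (SE 0.10, adjusted p = 2.42e-07 by edgeR).

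Of 10 further genes of GABA signalling, 7 had an adjusted p under 0.05 with the block and were higher in the rRNA-depleted libraries, 0 were lower (11.1% and 19.2% of all genes tested), and the median log2 fold change was 0.35. Gat, which encodes the GABA transporter of glia, had 806.9 and 708.9 CPM in rRNA-depleted 1 and 2, against 557.5 and 383.4 CPM in polyA-enriched 1 and 2, and its log2 difference with the block was 0.76 (SE 0.10, adjusted p = 2.51e-09 by edgeR), larger than that of any member. Gabat, the GABA transaminase that degrades GABA, had 574.8 and 221.4 CPM in the rRNA-depleted libraries, against 636.3 and 257.1 CPM in the polyA-enriched libraries. Its labels overlapped. Along the number it was called lower in the libraries numbered 2 without a block (log2 -1.26, SE 0.13, adjusted p = 0.0306 by edgeR), in the direction of Gad1. In that comparison 2.42% of all genes tested were called lower.

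Of 23 further genes of glutamate signalling, 19 were tested, and the 4 left out were GluRIIB, GluRIIC and GluRIIE, which encode receptor subunits of the neuromuscular junction, and clumsy, with at most 20 counts in any library. With the block, 6 of the 19 passed as higher in the rRNA-depleted libraries and 2 as lower, against 11.1% and 19.2% of all genes tested, with a median of 0.12. Gs2, the glutamine synthetase of glia, had 2467 and 1091 CPM in rRNA-depleted 1 and 2, against 2157 and 1257 CPM in polyA-enriched 1 and 2, and the glial glutamate transporter gene Eaat1 had 1140 and 842.4 CPM, against 966.7 and 687.0 CPM. Along the number, both were lower in the libraries numbered 2, opposite to VGlut, with log2 fold changes of -0.90 (adjusted p = 0.0616 by edgeR) and -0.38 (adjusted p = 0.315). Ekar, a gene of the kainate receptor family, was called higher in the libraries numbered 2, as were 5.91% of all genes tested. It had 649 and 557 counts in rRNA-depleted 2 and polyA-enriched 2, against 144 and 157 counts in rRNA-depleted 1 and polyA-enriched 1 (log2 2.31, SE 0.17, adjusted p = 0.0304 by edgeR). Leaving out rRNA-depleted 1, rRNA-depleted 2 or polyA-enriched 1 left 0 genes of the transmitter lists called along the number, and leaving out polyA-enriched 2 left 1.

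Of the 55 tested genes of the cell type lists, 2 (3.64%) were called along the number without a block, against 8.33% of all genes tested, both higher in the libraries numbered 2, as VGlut was with the block. The neuron marker futsch, which encodes a microtubule-associated protein, had 3002 and 2884 CPM in rRNA-depleted 2 and polyA-enriched 2, against 1352 and 1132 CPM in rRNA-depleted 1 and polyA-enriched 1 (log2 1.32, SE 0.22, adjusted p = 0.0422 by edgeR). DAT, the dopamine transporter gene, had 110.0 and 76.7 CPM in rRNA-depleted 2 and polyA-enriched 2, against 38.89 and 42.54 CPM in rRNA-depleted 1 and polyA-enriched 1 (log2 1.28, SE 0.25, adjusted p = 0.0498 by edgeR). Neither call remained without any 1 of the 4 libraries, as 0 genes of the cell type lists were then called. Of the 9 genes of aminergic neurons, 7 passed as higher and 1 as lower in the rRNA-depleted libraries with the block (11.1% and 19.2% of all genes tested), at a median log2 fold change of 0.34, with 0 called.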

How the data were processed

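Libraries were prepared by the authors from total RNA of pooled brains of Canton-S flies, the RNA having been split for both preparations. The deposited values are raw read counts per gene, made by the authors with Trimmomatic, STAR on dm6 and featureCounts. Versions, annotation, strand setting and the handling of reads in overlapping genes are not given in the sources used here. Of 16729 rows, 4 were left out (Dscam1 and para, whose rows held no readable counts, and stray coordinate rows). By symbol 12510 genes matched the Ensembl annotation and 4012 by an older symbol, and 203 did not match. Exon length is the union of annotated exons. S2 cell libraries and GC content were not analysed here.

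The 9737 genes that reached 10 counts in 2 or more libraries were tested with edgeR 4.0.16 (quasi-likelihood, TMM) in R 4.3.3, with Benjamini-Hochberg adjustment over all of them. A gene was called at an adjusted p under 0.05 and a log2 fold change beyond 1. DESeq2 1.42.0, other scalings and filters, thresholds, gene lengths and leaving out each library were alternatives. Simulated counts were also fitted, but they lacked the broad difference between the numbers seen here, so they cannot check the tests in that setting. Single values were compared by exact permutation over libraries, and Wilson intervals were computed with scipy 1.17.1. Total counts of 11838449 to 14295047 per library set the counting precision, and intervals and floors cover counting error only, as reads without molecular identifiers are not independent molecules. With 2 libraries per group, the permutation p-values depend only on the order of the library values. The edgeR and DESeq2 p-values draw on the spread between libraries and on the spread shared by all genes.

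The methods have the extracted RNA split between the preparations, but do not state that equal numbers share an extraction. If they do, each number stands for a single RNA sample. The p-values along the number, with or without the block, then hold the spread between preparations and not between brain samples. Same-numbered libraries deviated from their label means together (correlation across genes 0.902 between the labels), so the number was also fitted as a block, and the comparison of the numbers was fitted with the label as a block.

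The members and lists were chosen with earlier results of these data known. Genes named in the text are the members, the list genes that were called without a block (at most 5 per comparison, by size of change), the 2 genes with the highest level per kilobase of each transmitter list, and the 2 genes nearest to each member. ChT, nAChRbeta3, the glial genes alrm, wrapper and moody, the muscle genes at low counts and the untested genes were named outside this rule, after their values were seen. The same holds for the photoreceptor gene norpA and the muscle genes bt and Act79B.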

Additional observations from a re-analysis of the deposited data

How the results depend on the processing

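Between the labels, 1214 genes were called when the replicate number was fitted as a block, where 0 were called without it. The count was 255 with no filter on low counts, 153 with at least 10 counts in all 4 libraries, 548 with DESeq2, 208 without polyA-enriched 2, 68 without polyA-enriched 1 and 0 without either rRNA-depleted library. Between the numbers, 811 genes were called, against 1554 with the label as a block, 149 with no filter, 0 at an adjusted p under 0.01, 1305 with no fold threshold, 84 without polyA-enriched 2 and 0 without any 1 of the others. With the block, VGlut was called between the numbers (log2 1.03), and no other member changed its call. In the acetylcholine, GABA and glutamate lists, with 13, 10 and 19 genes tested, 1 gene was called between the labels with the block, against 0 without. Between the numbers 2 genes of these lists were called, and 1 with no filter. Over all genes tested, 12.5% were called between the labels with the block and 8.33% between the numbers without a block. In the cell type lists, 0 genes were called between the labels, against 26 with the block, 16 with no filter, 9 with at least 10 counts in all 4 libraries, 25 with DESeq2 and 0 to 17 with 1 library left out. Between the numbers 2 were called, against 8 with the block, 0 with DESeq2 size factors, 0 with no filter, 4 with DESeq2 and 0 to 0 with 1 library left out. The cause of these shifts was not tested. A fit with 1 library left out assumes that the lone library of a group varies like the others.

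Per kilobase of coding sequence, the mean log2 ratio over the 4 libraries was 2.06 for VAChT to ChAT (0.92 per kilobase of exon), 1.91 for Ace to ChAT (0.68), -2.27 for VGAT to Gad1 (-1.72), 2.42 for Gad1 to ChAT (2.04), 2.27 for VGlut to ChAT (1.57), -0.21 for VAChT to VGlut (-0.65), 1.92 for VAChT to VGAT (0.60), 2.13 for VGlut to VGAT (1.25) and -0.14 for VGlut to Gad1 (-0.47), since coding length leaves out the untranslated exons. The same counts were also divided by the exon length that no other gene holds, a choice made after seeing the data. The mean log2 ratio was then 1.80 for Gad1 to ChAT, 0.73 for VAChT to VGAT and 0.44 for Ace to ChAT. With 1 library left out, the label difference of the log2 ratio ran between -0.34 and 0.26 for VAChT to ChAT, -0.56 and 0.40 for VGAT to Gad1, -0.21 and 0.18 for Gad1 to ChAT, -0.73 and 0.47 for VGlut to ChAT, -0.91 and 0.68 for VGlut to Gad1, -0.21 and 0.40 for VAChT to VGlut, -0.38 and 0.31 for VGlut to VGAT and -0.69 and -0.12 for Ace to ChAT, and the number difference of VAChT to VGAT between -0.024 and 0.079. The log2 fold change between the labels ran between -0.039 and 0.436 for Ace and between -0.16 and 1.09 for VGlut, and between the numbers between -0.48 and 0.16 for ChAT. The other members kept their direction under every setting that was run. Each member had at least 2563 counts in every library, so its errors rest on the number of libraries more than on counting.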
